A study of Rattus norvegicus with 4 samples.

Results

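The miRNAs of the Dlk1-Dio3 imprinted cluster were examined in H9c2 cells, a cardiomyoblast line from rat heart, and in the exosomes that these cells shed into their medium. Members were taken by name. Every mature rat miRNA in the deposited table that carries 1 of 40 miRNA numbers belonging to the cluster was included, with any letter and either arm, which gave 83 mature miRNAs from 44 hairpin precursors and left 682 others. Small RNA-seq, in which short RNAs are ligated to adaptors, amplified by PCR and sequenced, was available for 4 libraries. They came from cells and from exosomes, each after 48 h in normoxia or in hypoxia, all from unmodified H9c2 cells. Medium with exosome-depleted foetal bovine serum was used throughout, hypoxic cells were kept in a sealed chamber with an oxygen absorber, and exosomes were pelleted from conditioned medium by ultracentrifugation. Each condition was 1 library, so no comparison between conditions has a replicate check or a p-value. The methods give a sample number for RNA extraction without saying what it counts, so it is not known whether a library came from 1 culture or from a pool.

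Dlk1, which encodes a relative of Notch ligands, and Dio3, which encodes an enzyme that inactivates thyroid hormone, mark the ends of an imprinted domain. In mouse and human its protein-coding genes are read from the paternal chromosome, and its long non-coding RNAs, such as Meg3, and its miRNAs from the maternal one. The miRNAs are cut from long transcripts that hold many hairpins in a row, and they are best known from embryo, placenta and brain, with levels that drop in most other tissues after birth.

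Levels are given in RPM, read counts that the authors scaled to the same total in every library. All values above 0 were whole multiples of 1 step in their library, to within 0.1 step, and none was under 10 steps. The step was taken as 1 read, and a miRNA is called listed at 10 reads or more. A value of 0 therefore stands for fewer than 10 reads and does not show absence. A count of 10 reads was worth 0.961 RPM in the normoxic and 0.753 RPM in the hypoxic cells, 0.843 RPM in normoxic exosomes and 0.809 RPM in hypoxic exosomes. The scale stood for 10404866 to 13285239 reads a library. Of these, miRNAs held 5310302 reads in the normoxic and 3578371 in the hypoxic cells, but 13598 in normoxic exosomes and 108860 in hypoxic exosomes. The 95% intervals given are exact (Clopper-Pearson). They hold counting error alone, as reads copied by PCR do not each stand for a separate molecule. In bulk RNA, fewer cells that make a miRNA and less of it per cell cannot be told apart. Of 7 miRNAs taken as markers of muscle and heart, 3 were listed in normoxic cells and 2 in hypoxic cells, led by miR-499-5p at 26.6 RPM in the normoxic library and 12.7 RPM in the hypoxic one. From the same list miR-206-3p had 3.27 RPM (34 reads) in normoxic and 1.51 RPM (20 reads) in hypoxic cells. miR-1-3p had 2.31 RPM (24 reads) in normoxic cells and 0.843 RPM (10 reads) in normoxic exosomes, and was at 0 in both hypoxic libraries. The remaining markers miR-133a-3p, miR-133b-3p, miR-208a-3p and miR-208b-3p were listed at 0 in all 4 libraries, as was miR-124-3p, the defining miRNA of neurons. Of 3 miRNAs taken as markers of brain, the other 2 were listed in all 4 libraries. In normoxic and hypoxic cells miR-128-3p had 347 and 206 RPM, and miR-9a-5p had 25.8 and 8.13 RPM.

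Only 10 of the 83 members were listed in any library, each through 1 arm of its hairpin. Their mature sequences are shown because every measurement below rests on them. They are from RefSeq (GRCr8), in the order of their genes on chromosome 6, with the seed (bases 2 to 8, which pair with target mRNAs) in capitals.
miR-127-3p: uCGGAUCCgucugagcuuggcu
miR-370-3p: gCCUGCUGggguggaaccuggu
miR-379-5p: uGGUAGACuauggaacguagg
miR-411-5p: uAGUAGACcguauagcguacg
miR-494-3p: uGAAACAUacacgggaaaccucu
miR-300-3p: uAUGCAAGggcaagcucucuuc
miR-381-3p: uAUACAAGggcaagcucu
miR-134-5p: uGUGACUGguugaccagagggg
miR-541-5p: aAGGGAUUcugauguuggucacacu
miR-412-5p: uGGUCGACcagcuggaaagu

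All 10 lie on the plus strand. The first, miR-127-3p, is at chr6:134328510-134328531 within the span of Rtl1, a gene derived from a retrotransposon that in mouse is repressed by miR-127 from the opposite strand. miR-370-3p (chr6:134354538-134354559), miR-379-5p (chr6:134543460-134543480), miR-411-5p (chr6:134544604-134544624) and miR-494-3p (chr6:134550163-134550185) lie within the long non-coding RNA gene LOC102555254. Within a second one, LOC120103623, lie miR-300-3p (chr6:134559968-134559989), miR-381-3p (chr6:134562422-134562439), miR-134-5p (chr6:134570320-134570341), miR-541-5p (chr6:134578434-134578458) and miR-412-5p (chr6:134579345-134579364). Of the 83 members, 81 matched a RefSeq mature sequence by name and all 81 lie between Dlk1 and Dio3. miR-127-5p and miR-136-5p were not matched.

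The listed members had little sequence in common. The 81 matched members had 75 different seeds, and 5 seeds were shared by 2 or more members. Among the 10 listed members only miR-381-3p shared its seed with another miRNA of the 690 matched in the table, miR-539-3p, which was at 0 in every library. miR-300-3p and miR-381-3p were the closest pair. Over the 18 bases compared from the 5′ end they differed by 1 substitution, G4A, with the base of miR-300-3p given first and positions counted from 1 at the 5′ end. Their reads may therefore have been divided between them in a way that depends on the aligner. The neighbours miR-379-5p and miR-411-5p, which are thought to descend from a common hairpin, were identical at 14 of 21 bases and differed by 1 base in the seed (G2A). For the other members the most similar miRNA of the table differed at 5 to 7 bases. A 5′ uridine was carried by 8 of the 10 listed members (80%), by 18 of the 71 matched members that were at 0 throughout (25.4%) and by 249 of all 690 matched miRNAs (36.1%). The 10 are each the listed arm of a hairpin, whereas the larger sets hold listed and unlisted arms, so the shares are not like for like. The share among listed miRNAs outside the cluster was not computed.

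Most of the cluster was below the listing limit in every library. In normoxic cells 4 of 83 members were listed (4.82%), against 49% of the 682 other miRNAs. In hypoxic cells it was 9 of 83 (10.8%), against 47.2% of the others. Normoxic exosomes had 1 listed member (1.2%, against 10.7% of the other miRNAs) and hypoxic exosomes 3 (3.61%, against 20.7%). No member had more than 90 reads in any library, and 73 members were at 0 in all 4. These include both arms of miR-376a, miR-376b, miR-376c, miR-409a, miR-410 and miR-154, and miR-495. A further 19 miRNAs of the table that lie between Dlk1 and Dio3 but do not have 1 of the 40 numbers, such as miR-666 and miR-667, were also at 0 in all libraries.

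**Figure D1:**
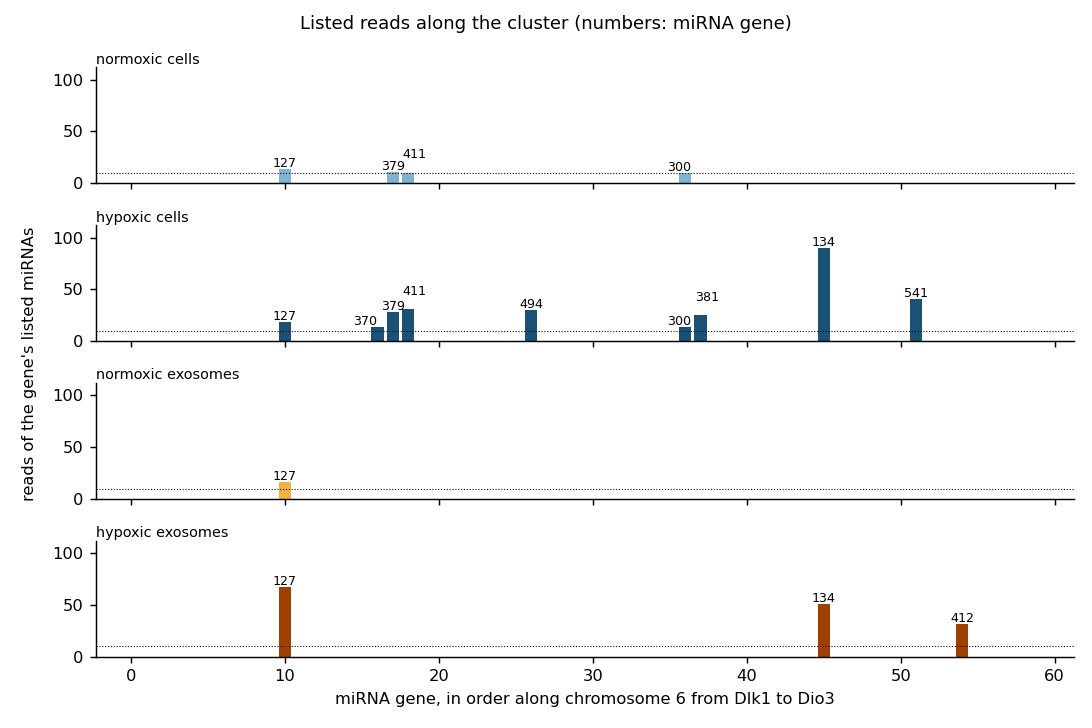
Reads of the listed miRNAs (vertical axis) for each of 58 miRNA genes between Dlk1 and Dio3, in their order along chromosome 6 (horizontal axis), with 1 panel per library and a dotted line at 10 reads. Bars are labelled with the number of the miRNA gene. Normoxic cells have 4 bars of 10 to 14 reads, hypoxic cells 9 bars of 14 to 90 reads, normoxic exosomes 1 bar and hypoxic exosomes 3 bars.

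The listed members were spread over the domain rather than lying in 1 block. In the part next to Meg3 and Rtl1, 2 of 23 members were listed in at least 1 library, miR-127-3p and miR-370-3p. In the stretch that begins with miR-379, 3 of 21 were listed (miR-379-5p, miR-411-5p and miR-494-3p), and in the stretch from the miR-376 genes to miR-410, 5 of 39. Among 39 hairpins with both arms in the table, none had both arms listed in the same library, so a ratio of arms could only be bounded. With the unlisted arm at no more than 9 reads, miR-134-5p made up at least 90.9% of the reads of its hairpin in hypoxic cells and at least 85% in hypoxic exosomes. For miR-127-3p the corresponding bound was 88.2% in hypoxic exosomes, and in the other 3 libraries it was 60.9% to 66.7%.

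Listed members held 45 reads in normoxic cells, 0.000847% of the miRNA reads (0.000618% to 0.00113%). In hypoxic cells they held 291 reads, 0.00813% (0.00722% to 0.00912%). In RPM the sums were 4.32 and 21.9. The unlisted members limit what these sums can show. If every unlisted member had 9 reads, the sum would be 72.7 RPM in the normoxic and 72 RPM in the hypoxic library, so the possible ranges of the cluster's total overlap and a difference in the total is not established. In normoxic exosomes the listed members held 16 reads, all of them miR-127-3p, which was 0.118% of the miRNA reads (0.0673% to 0.191%). Hypoxic exosomes had 150 reads, 0.138% (0.117% to 0.162%). These exosome intervals overlap, but they leave out the unlisted members. If every unlisted member had 9 reads, the share would be 5.54% in normoxic and 0.799% in hypoxic exosomes. Neither a difference nor a likeness of the cluster's share in exosomes is therefore established. For comparison, the cluster of miR-322, miR-503, miR-351, miR-542, miR-450a and miR-450b on the X chromosome had all 12 of its mature miRNAs listed in both libraries of cells, with sums of 4359 RPM under normoxia and 6078 RPM under hypoxia.

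**Figure D2:**
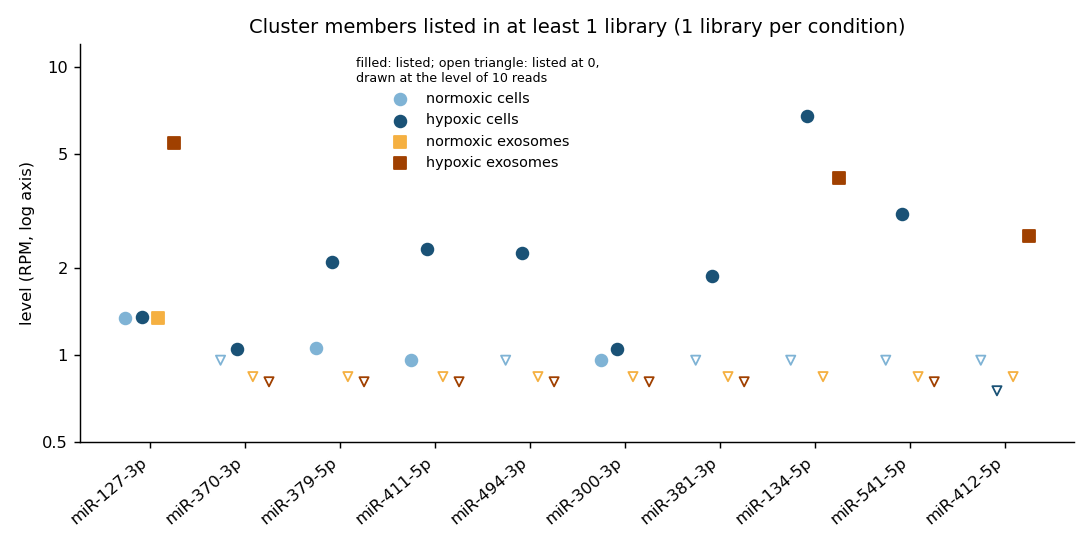
Level in RPM (vertical axis, log scale) of the 10 listed members in the 4 libraries, 1 library per condition and therefore no error bars, with members in their order on chromosome 6. Filled symbols are listed values, and open triangles mark members listed at 0, drawn at the level of 10 reads. miR-134-5p in hypoxic cells is the highest value at 6.77 RPM, and miR-127-3p is the only member with 4 filled symbols.

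The comparison of hypoxic with normoxic cells asks which miRNAs shift when oxygen is withdrawn. The 4 members listed in both libraries of cells had ratios of hypoxia to normoxia between 1.01 and 2.43, and 5 more were listed in hypoxia alone. Ratios are RPM in hypoxia over RPM in normoxia, and a ratio above 2 or below 0.5 was counted as differential, as the study defines it by fold-change. Among the 316 miRNAs listed in both libraries of cells, 1.27% were above 2, 27.8% were below 0.5 and 13.3% were above 1, around a median of 0.612. Of the 4 members listed in both, 1 was above 2 and 4 were above 1, with a median of 1.55. The listing limit bears on these counts. At their normoxic levels the members could be listed in both libraries only with a ratio of at least 0.559 for miR-127-3p, 0.712 for miR-379-5p and 0.783 for miR-300-3p and miR-411-5p. None could therefore have been below 0.5, and the last 3 had to lie above the median of all miRNAs, so their place above that median is not a result. A further 5 members were listed in hypoxic cells and not in normoxic cells, which held for 1.96% of all miRNAs of the table, and 0 members showed the opposite, which held for 2.88%. The 10-read limit lay lower in hypoxic cells, but all 9 members listed there were also above the 0.961 RPM that 10 reads were worth in normoxic cells. A member listed only in hypoxia had to be higher there, so these 5 are a description and not a separate line of support.

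miR-411-5p had 0.961 RPM in normoxic cells (10 reads) and 2.33 RPM in hypoxic cells (31 reads), and was at 0 in both libraries of exosomes. Its ratio of 2.43 (95% counting interval 1.16 to 5.55) had rank 3 of the 316, and its interval reaches below 2. Its neighbour miR-379-5p had 1.06 RPM in normoxic cells (11 reads) and 2.11 RPM in hypoxic cells (28 reads), with 0 in exosomes. The ratio of 1.99 (0.962 to 4.44) had rank 5 and lay just below the threshold. These related miRNAs thus had nearly the same pair of levels, and their intervals overlap almost entirely.

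The other members listed in both libraries of cells were close to a ratio of 1. miR-300-3p had 0.961 RPM in normoxic cells (10 reads) and 1.05 RPM in hypoxic cells (14 reads), a ratio of 1.1 (0.453 to 2.76). miR-127-3p had 1.35 RPM in normoxic cells (14 reads) and 1.35 RPM in hypoxic cells (18 reads), a ratio of 1.01 (0.473 to 2.19). Both intervals reach from below 0.5 to above 2, so at this depth a change of the size used as the threshold could not be told from none in either direction.

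miR-134-5p, which in rat hippocampal neurons restrains the growth of dendritic spines through the kinase Limk1, had the highest level of any member in hypoxic cells. It was listed at 0 in normoxic cells and had 6.77 RPM (5.45 to 8.33) in hypoxic cells, from 90 reads. Against the 10-read limit of normoxic cells its level was at least 7.05-fold higher in hypoxic cells (counting interval of that bound 3.66 to 15.2). Of the 15 miRNAs listed in hypoxic and not in normoxic cells it had the most reads, and by reads it ranked 206 among the 331 miRNAs listed in hypoxic cells.

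Next among the miRNAs listed only in hypoxic cells came miR-541-5p with 41 reads and miR-494-3p with 30. miR-541-5p had 3.09 RPM, at least 3.21-fold higher than the limit in normoxic cells (1.58 to 7.19). miR-494-3p, which protects the mouse heart against ischaemia and reperfusion when overexpressed, had 2.26 RPM, at least 2.35-fold higher (1.12 to 5.39). miR-381-3p had 1.88 RPM (25 reads), a bound of 1.96-fold (0.908 to 4.57). miR-370-3p had 1.05 RPM (14 reads), a bound of 1.1-fold (0.453 to 2.76). For the last pair the intervals include 1, so that their listing in 1 library alone does not separate the conditions. All 4 were at 0 in both libraries of exosomes.

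**Figure D3:**
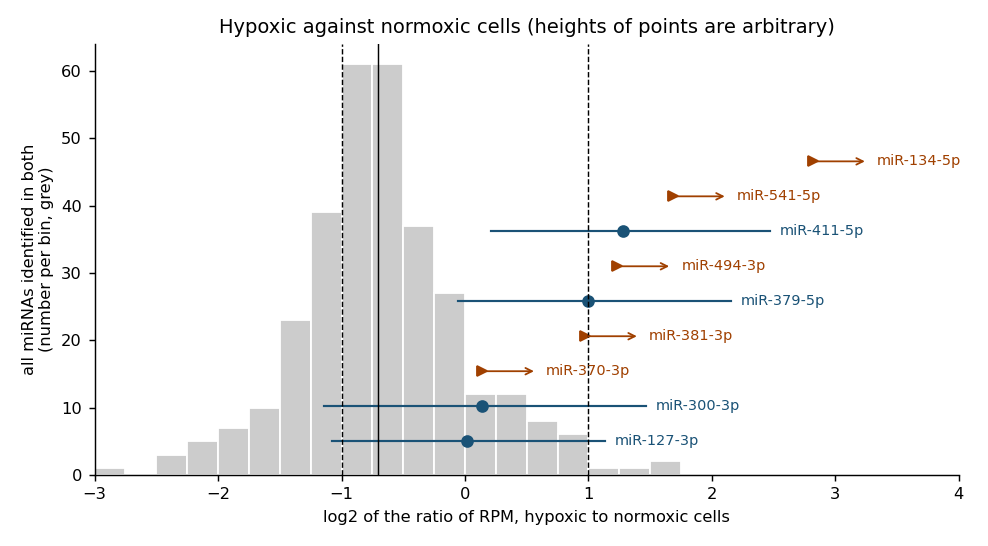
Log2 of the ratio of RPM in hypoxic to normoxic cells (horizontal axis). Grey bars count all 316 miRNAs listed in both libraries (vertical axis), the solid line is their median ratio of 0.612 and the dashed lines mark ratios of 0.5 and 2. Blue points with 95% counting intervals are the 4 members listed in both libraries, and brown arrows start at the lower bound of the 5 members listed only in hypoxia. All 9 lie to the right of the median, as 8 of them had to in order to be listed in hypoxic cells, and point heights carry no value.

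How libraries are scaled decides how far from 1 these ratios lie. Summed over all miRNAs, the RPM of hypoxic cells came to 0.528 times that of normoxic cells, and scaling each library to its miRNA total raises every ratio by the same factor. On that scale miR-411-5p had 4.6, miR-379-5p 3.78, miR-300-3p 2.08 and miR-127-3p 1.91, so that 3 of 4 members were above 2. Of all miRNAs listed in both libraries 11.7% were above 2 on that scale. The lowest ratios with which these members could be listed rise by the same factor, so their share cannot be set against that of all miRNAs. The order of the members among all miRNAs is the same on each scale. The X chromosome cluster had 10 of 12 ratios above 1 and 2 above 2 on RPM, with a median of 1.46, so that ratios above 1 in hypoxic cells were not particular to the Dlk1-Dio3 miRNAs.

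In exosomes 3 members were listed, miR-127-3p, miR-134-5p and miR-412-5p, all with higher RPM in hypoxia, as were most exosomal miRNAs. miR-127-3p had 1.35 RPM in normoxic exosomes (16 reads) and 5.42 RPM in hypoxic exosomes (67 reads), a ratio of 4.02 (2.31 to 7.44). For 84.9% of the 73 exosomal miRNAs listed under both conditions the ratio was above 2, for 1.37% it was below 0.5 and for 94.5% above 1, and miR-127-3p had rank 52 from the highest, under the median of 6.73. The miRNA total was 7.69 times as high in hypoxic exosomes, and scaled to that total the ratio of miR-127-3p was 0.523 (0.3 to 0.967), on the other side of 1, with 13.7% of the 73 above 2 on that scale. The ratio of miR-127-3p was thus above 1 in RPM and below that of the typical exosomal miRNA.

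miR-134-5p was at 0 in normoxic exosomes and had 4.13 RPM (3.07 to 5.43) in hypoxic exosomes, from 51 reads, at least 4.9-fold higher than the limit (2.46 to 10.8). It was thus listed in both hypoxic libraries and in neither normoxic one. miR-412-5p was at 0 in normoxic exosomes and had 2.59 RPM (1.77 to 3.66) in hypoxic exosomes, from 32 reads, at least 3.07-fold higher (1.47 to 7.01). Over all miRNAs examined, 9.28% were listed in hypoxic and not in normoxic exosomes, where the miRNA reads were 8.01 times as many. Multiplied down to the miRNA total of normoxic exosomes, the expected reads were 8.37 for miR-127-3p, 6.37 for miR-134-5p and 4 for miR-412-5p, all under the limit of 10.

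Exosomes were also set against the cells they came from, which asks which miRNAs are relatively frequent outside the cell. miR-127-3p had almost the same RPM in normoxic exosomes as in normoxic cells, a ratio of 1 (0.458 to 2.22), where the median over the 73 miRNAs listed in both was 0.00304. Of these 73, 2.74% were above 1, 1.37% were above 2 and 93.2% were below 0.5, and miR-127-3p had rank 2. At its level in normoxic cells it could be listed in normoxic exosomes only with a ratio of at least 0.626, which would have been rank 5, so its place far above the median follows from the listing limit. In hypoxia its RPM was 4 times as high in exosomes as in cells (2.35 to 7.16), again rank 2, here of 138 miRNAs. Of those 138, 5.80% were above 2, 9.42% above 1 and 84.1% below 0.5, around a median of 0.0493. The lowest ratio with which it could have been listed in hypoxic exosomes was 0.597, rank 21, and its interval lies above that value. miR-134-5p had a ratio of 0.609 (0.424 to 0.869) in hypoxia, where 0.119, also above the median, was the lowest that could be listed. Scaled to the miRNA totals, both members were above 2 in hypoxia, as were 44.9% of the 138. On that scale miR-127-3p was above 2 in normoxia, as were 42.5% of the 73. The lowest ratio that could be listed also lay above 2 on that scale in each case, so these calls are not a result. In the X chromosome cluster 5 of the 12 miRNAs were listed in hypoxic exosomes, with a highest ratio of 0.358. The clusters cannot be ranked by these ratios, since 7 further Dlk1-Dio3 members, at 0 in hypoxic exosomes, had ratios of at most 0.262 to 0.768.

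**Figure D4:**
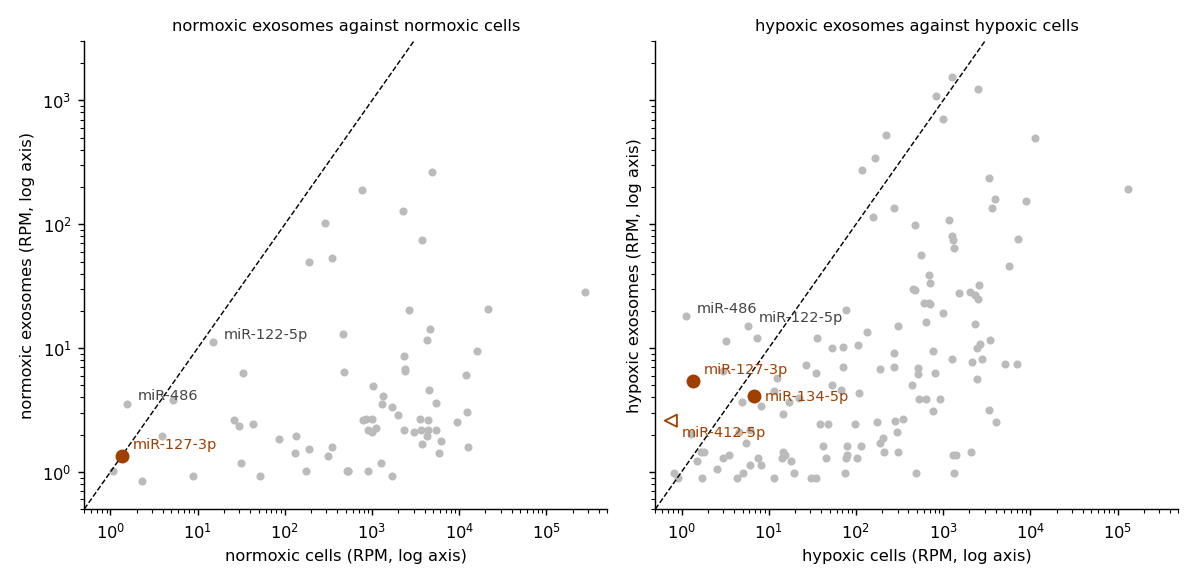
RPM in exosomes (vertical axis) against RPM in cells (horizontal axis), both on log scales, for miRNAs listed in both libraries, in normoxia (left) and hypoxia (right). Grey points are miRNAs outside the cluster, brown points are members, the open triangle is miR-412-5p drawn at the 10-read limit of hypoxic cells, and the dashed line marks equal RPM. miR-127-3p lies on the line in normoxia (ratio 1) and above it in hypoxia (ratio 4), near miR-486 and miR-122-5p.

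miR-412-5p was at 0 in both libraries of cells, and its RPM in hypoxic exosomes was at least 3.44-fold higher than the limit in hypoxic cells (1.65 to 7.85). Over all miRNAs examined, 0.784% were listed in hypoxic exosomes and not in hypoxic cells. Of 145 miRNAs listed in exosomes, 142 were also listed in cells, and miR-412-5p was 1 of the other 3. In hypoxic exosomes it had 32 reads, against 10 for miR-375-3p and 23 for miR-3586-5p. In normoxic exosomes only miR-3586-5p of these was listed, with 10 reads. The 7 members listed in hypoxic cells but not in hypoxic exosomes, which held for 25.2% of all miRNAs examined, included miR-541-5p, miR-494-3p and miR-411-5p. The limit puts their exosome-to-cell ratios at no more than 0.262 for miR-541-5p (0.117 to 0.532), 0.358 for miR-494-3p (0.156 to 0.753) and 0.347 for miR-411-5p (0.152 to 0.726). These bounds lie above the median of 0.0493, so the depth cannot show whether these members differ from the typical miRNA.

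The miRNAs near miR-127-3p in this order include some from the marker lists used, of blood, of liver and, in normoxia, of muscle and heart. miR-486, which is abundant in red blood cells and was taken here as a blood marker, had the highest exosome-to-cell ratio in normoxia (2.3, 1.27 to 4.39) and in hypoxia (16, 9.49 to 29). miR-122-5p, the main miRNA of liver, had rank 4 in both, at 0.747 (0.587 to 0.948) and 2.65 (2.02 to 3.5). miR-486 had only 16 reads in normoxic and 15 in hypoxic cells, so the listing limit bears on its ratios as well. Other miRNAs near miR-127-3p in hypoxia were on none of the marker lists used. They include miR-193b-3p at rank 3 (3.53), miR-3557-5p at rank 5 (2.4) and miR-378a-3p at rank 6 (2.32). In normoxia miR-3574 at rank 3 (0.957), miR-3591 at rank 5 (0.731) and miR-1b at rank 6 (0.492) were likewise on no list. miR-1-3p, from the muscle and heart list, had rank 7 in normoxia (0.365, 0.156 to 0.793), with 24 reads in cells and 10 in exosomes. Of 4 blood markers, 3 were listed in normoxic cells, 2 in hypoxic cells, 1 in normoxic exosomes and 2 in hypoxic exosomes. Their summed level was 5 RPM in the normoxic and 1.96 RPM in the hypoxic cells, 3.54 RPM in normoxic exosomes and 19.6 RPM in hypoxic exosomes. Of these sums miR-486 alone held 1.54 RPM in normoxic and 1.13 RPM in hypoxic cells. It held 3.54 RPM in normoxic and 18.1 RPM in hypoxic exosomes, so the exosome sums mostly repeat that miRNA. Among the 4 blood markers miR-223-3p was at 0 in all libraries and miR-142-3p at 0 in exosomes. Whether the source of these miRNAs has a part in the exosome values of miR-127-3p, miR-134-5p and miR-412-5p was not tested.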

How the data were processed

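The authors enriched RNA of 18 to 30 nucleotides, ligated adaptors, amplified by PCR, sequenced by Illumina chemistry and matched the reads to rat miRBase entries. The values they deposited are RPM. The build named in the submitters' processing notes is Rnor 6.0, and the aligner is not given in the sources used here. Each library's step, the largest value that divides all its deposited RPM, was found (100% within 0.1 step) and read as 1 read. Ratios were taken from RPM with exact (Clopper-Pearson) intervals. No count model was fitted, since each condition was 1 library. The computation was tested on simulated data. A miRNA at 0 was set to 10 reads to bound a ratio. Members, lists and alternatives were chosen with earlier results of these data known. All 4 values and the ratio were given for members with at least 50 reads, past a ratio of 2 or 0.5, or listed in exosomes, and the others were added since few were listed. Sequences and gene order are from RefSeq (GRCr8), which is not the build of the files. Alternatives were 3 scalings, other minimums and thresholds, summed arms, membership by position and other denominators. Python 3.11.15, numpy 2.4.6, pandas 2.3.3, scipy 1.17.1 and matplotlib 3.10.9 were used.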

Additional observations from a re-analysis of the deposited data

How the results depend on the processing

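No paired analysis was possible because each condition was 1 library. With 10 to 90 reads a member, counting error and the 10-read limit bound every ratio. Of 4 members in cells, 1 was above 2 on RPM, 3 when scaled to the miRNA total, 2 with the median ratio set to 1, 2 by the trimmed mean of M values, 2 at a threshold of 1.5 and 0 with the interval wholly above 2. With members at 0 set to 10 reads it was 4 of 9. The members added by that setting were listed in hypoxic cells alone, so their calls are not separate support. None of the 4 members listed in both libraries of cells had 20 reads in both or 50 in 1, so those alternatives gave no value. In exosomes miR-127-3p went from 4.02 to 0.523 scaled to the miRNA total, 0.598 with the median ratio set to 1 and 0.512 by the trimmed mean. On each of these scalings 0 members stayed above 2, and 3 of 3 were above 2 with members at 0 set to 10 reads. The members which that setting added, miR-134-5p and miR-412-5p, were at 0 in normoxic exosomes, so their calls are not separate support. Between exosomes and cells, the miRNA-total, median and trimmed-mean scalings each put 1 member above 2 in normoxia (0 on RPM) and 2 in hypoxia (1 on RPM). On each of these scalings the 10-read limit alone placed those members above 2, so the scaled counts are not a result. In hypoxia the count was 0 with at least 20 reads in both libraries and 2 of 10 with members at 0 set to 10 reads. The member that setting added above 2 was miR-412-5p, listed in hypoxic exosomes alone. For all these comparisons, no share over all miRNAs was computed at the median, trimmed-mean, 1.5, interval, read-minimum or 10-read settings. Counts under those settings therefore cannot be set against the rest of the miRNAs. A minimum of 20 reads left 0 members in normoxic cells and 0 in normoxic exosomes, and 0 were expected in hypoxic exosomes at the miRNA total of normoxic exosomes. The share of the cluster was 0.00188% in normoxic and 0.0158% in hypoxic cells without miR-21-5p. Over the reads behind the RPM scale it was 0.000432% in normoxic cells, 0.00219% in hypoxic cells, 0.000135% in normoxic exosomes and 0.00121% in hypoxic exosomes. Summing arms or taking members by position changed no count.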
